A study of Mus musculus with 12 samples.

Results

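The LIM homeobox genes Lhx1, Lhx2, Lhx3, Lhx4, Lhx5, Lhx6, Lhx8, Lhx9, Isl1 and Isl2 were examined for peaks of the acetyltransferase MOF in visceral white adipose tissue. These 10 of 21938 protein-coding genes were chosen by their MOF peaks, since several members of the family had been seen to carry peaks in these data, so the presence and the strength of the peaks are described below and not tested. A peak belonged to a gene when it lay in the gene body or within 3 kb of any annotated start site. LIM homeodomain proteins carry a pair of zinc-binding LIM domains, which bind other proteins, and a homeodomain, which binds DNA at motifs with a TAAT core. They work in complexes held together by the adaptor LDB1, and combinations of them specify cell types in the nervous system, the pituitary, the eye, the gonad, the heart and the pancreatic islets. They are best known as regulators of development rather than as genes of the mature fat cell.

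MOF (KAT8) acetylates histone H4, and the study asked where it sits on the chromatin of adipose tissue and how that differs when Mof is heterozygous. The tissue came from C57BL/6 mice (backcrossed to C57BL/6J in the methods) 8 weeks old on a standard diet, either wild type (Mof+/+) or Mof heterozygous (Mof+/-), and no other treatment is named in the labels. The labels describe 12 libraries in 6 groups of 2, namely MOF ChIP, histone H3 ChIP and input of each genotype, while the design text counts 2 control and 3 Mof+/- animals. The reporting summary of the paper gives as many animals per genotype as the labels. The values used here came from 2 lists of MOF peaks called against input, 1 list per genotype. Whether libraries were pooled for them is not stated, so the lists could not be compared against variation between animals. No Cre line or promoter is named for the heterozygous mice, and the study measured several of their organs, so the change in Mof was not confined to fat cells. In a bulk tissue, fewer cells of a type and less MOF per cell cannot be told apart.

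There were 19773 Mof+/+ peaks and 731 Mof+/- peaks. The caller reports fold enrichment, the fragments over the summit relative to the local input. The lowest input background was 3.52 fragments for Mof+/+ and 2.26 for Mof+/-. At that background a peak needed 11 fragments in either list to reach the weakest p-value called, a fold enrichment of 2.65 for Mof+/+ but of 3.68 for Mof+/-. A site of a given fold enrichment was therefore harder to call in the Mof+/- list, and a missing peak does not show that MOF was absent. Of 10 adipocyte genes fixed as a check of the tissue, 9 had a Mof+/+ peak (all but Lep) and 0 a Mof+/- peak. Of 8 neuronal genes, Syp had a Mof+/+ peak, and 0 had a Mof+/- peak. Over all protein-coding genes the shares by the rule above were 44.5% for Mof+/+ and 1.89% for Mof+/-. Most lists this short would therefore hold 0 Mof+/- peaks, and no loss at adipocyte genes can be read from the 0. A peak is not expression, and RNA was not measured in these libraries.

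Of the 10 LIM homeobox genes, 7 had a Mof+/+ peak (70%, 95% Wilson interval 39.7 to 89.2), while by the same rule 44.5% of all protein-coding genes did. In the Mof+/- list 6 of the 10 had a peak (60%, 31.3 to 83.2), against 1.89% of all protein-coding genes. Among all genes with a Mof+/+ peak, 4.06% also had a Mof+/- peak, and among the LIM homeobox genes 6 of 7 did. Because the family was picked for these peaks, the shares describe the choice and cannot be read as an enrichment. Lhx1, Lhx2, Lhx4, Lhx8, Lhx9 and Isl2 had peaks in both lists, Isl1 had Mof+/+ peaks alone, and Lhx3, Lhx5 and Lhx6 had none in either list.

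The 7 genes held 25 Mof+/+ peaks and 12 Mof+/- peaks. Of the 25 Mof+/+ peaks, 7 overlapped a Mof+/- peak (28%, 14.3 to 47.6), where 2.44% of all Mof+/+ peaks did. The share of the family was 46.7% (7 of 15) with peaks within 1000 bp merged. This merged share was not worked out over all peaks, so the 2.44% is no counterpart to it. Of the 12 Mof+/- peaks, 11 overlapped a Mof+/+ peak (91.7%, 64.6 to 98.5), close to the 84.8% of all Mof+/- peaks. Where at least 50% of both peaks had to be shared, 5 of the 12 (41.7%) overlapped, and 17.0% of all Mof+/- peaks did, so the share depended on the rule. Fold enrichment of the Mof+/+ peaks had a median of 3.41 here and 3.40 over all peaks. In the Mof+/- list the medians were 4.63 and 4.29. Median width was 644 bp here and 609 bp over all Mof+/+ peaks, and 752.5 bp against 434.5 bp in the Mof+/- list. The typical Mof+/+ peak of the family was thus as strong as that of the whole list, and members differed from each other by a small number of wide or strong peaks. The 7 Mof+/+ peaks that overlapped a Mof+/- peak had a median width of 2596 bp and a median fold enrichment of 4.20, while the 18 others had 557 bp and 3.17. Wide peaks overlap others more easily.

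**Figure D1:**
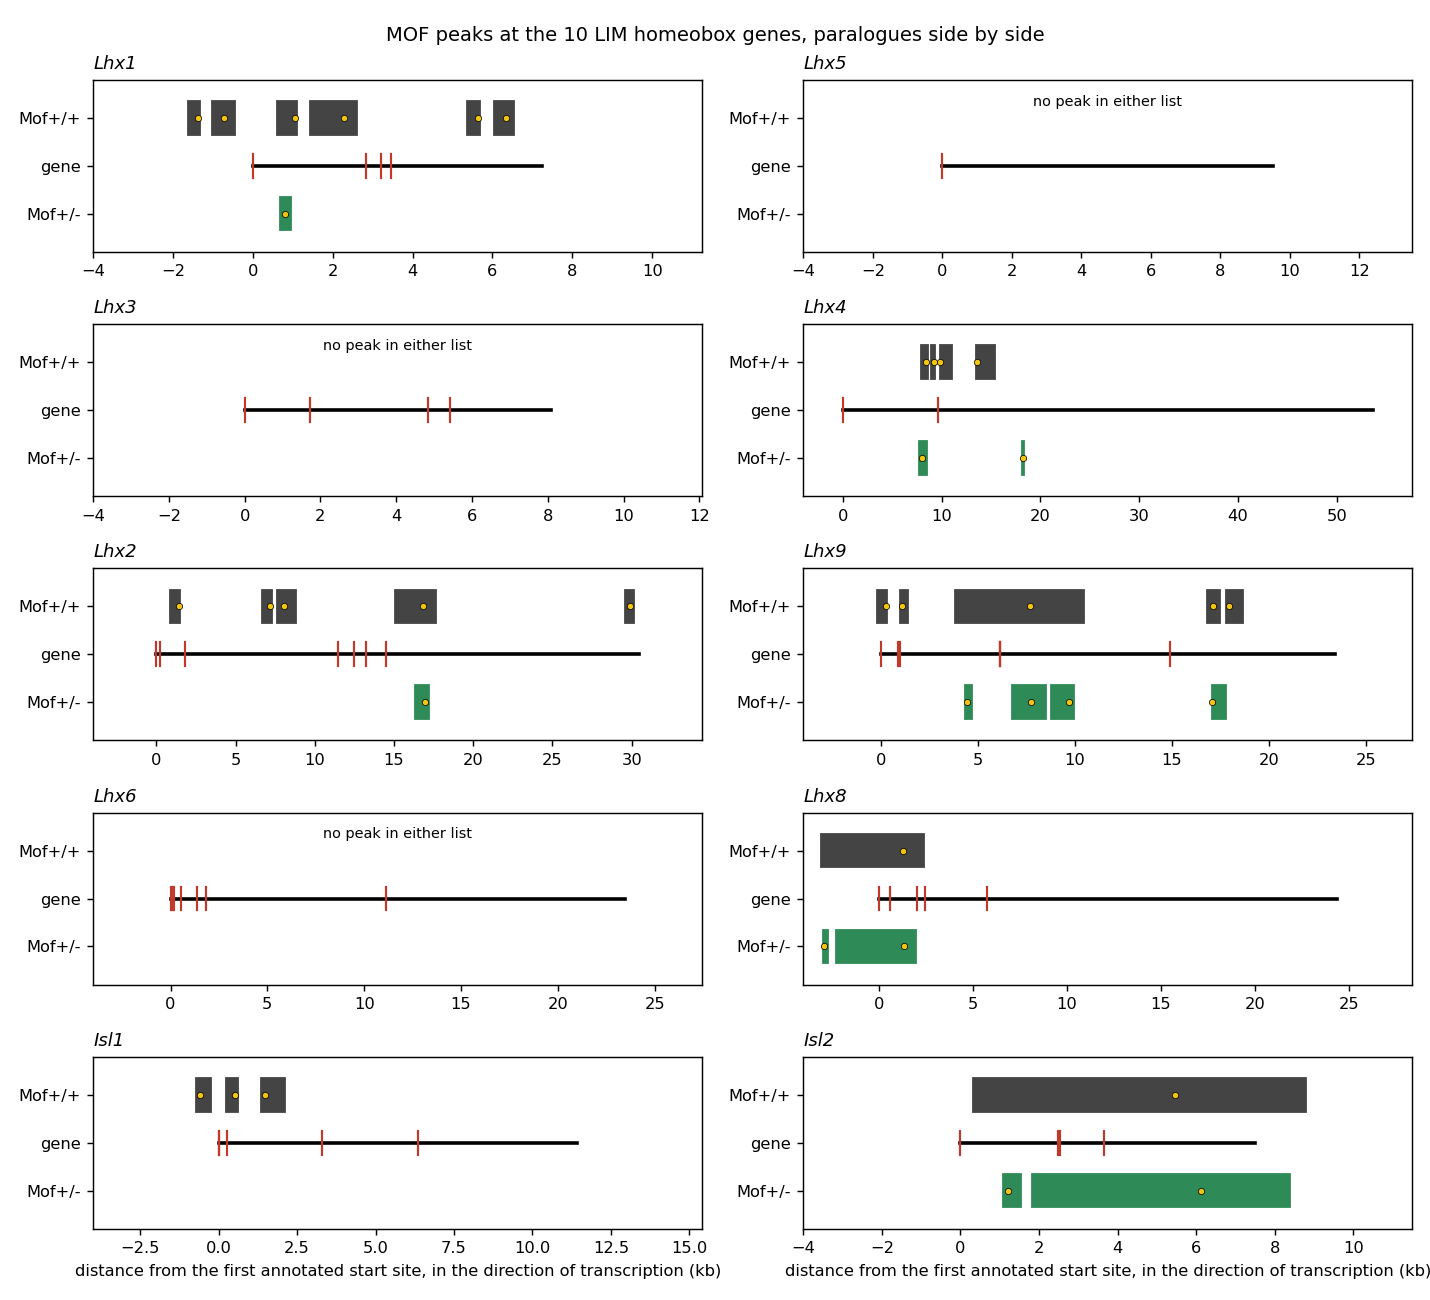
MOF peaks at each of the 10 LIM homeobox genes, with paralogues side by side, as distance in kb from the first annotated start site in the direction of transcription. Dark boxes are Mof+/+ peaks, green boxes Mof+/- peaks, yellow points their summits, and the black line the gene with its start sites as red ticks. Lhx3, Lhx5 and Lhx6 have no box, Isl1 has Mof+/+ boxes alone, and at Lhx8 and Isl2 a long Mof+/- box lies inside a longer Mof+/+ box.

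Vertebrate LIM homeobox genes come in paralogue pairs, and 5 pairs are covered here. Lhx2 and Lhx9 were the pair with peaks in both lists at both genes. In the pairs Lhx1 and Lhx5, Lhx3 and Lhx4, and Lhx6 and Lhx8, peaks were called at 1 gene of the pair and at none of the other in either list. In the pair Isl1 and Isl2, both had Mof+/+ peaks and Isl2 alone had Mof+/- peaks.

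Isl2, which acts in motor neurons and retinal ganglion cells, had the strongest Mof+/+ peak of the family. The gene (ENSMUSG00000032318.12) lies at chr9:55538672-55546180 on the plus strand in GRCm38. Its Mof+/+ peak, chr9:55538997-55547459, was 8463 bp wide and had a fold enrichment of 9.51, with 42 fragments (exact Poisson 95% interval 30.3 to 56.8) over a background of 3.52 at the summit. It ranked 16 of the list by fold enrichment and 28 by width, and it ran from 325 bp downstream of the first start site to beyond the end of the gene. In the Mof+/- list the gene had a peak of 6578 bp at chr9:55540495-55547072 with a fold enrichment of 5.32, the second widest of that list, and one of 480 bp at chr9:55539744-55540223 with a fold enrichment of 4.91. Both lay inside the Mof+/+ peak, and 83.4% of the base pairs under it were also under a Mof+/- peak. Outside the rule, 1458 bp past its edge, lay a further Mof+/- peak, chr9:55547638-55548138, with a fold enrichment of 3.46, beyond the end of the Mof+/+ peak. The first start site was under no peak in either list, and the other 3 start sites were under a peak in both. An antisense gene, Gm17226, lies under the same peaks, and a peak cannot be given to a strand.

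The summits of the wide Isl2 peaks lay 666 bp apart, in a coding exon in the Mof+/+ list and in an intron in the Mof+/- list. The 151 bp around each are shown to compare what lay at the highest point in each genotype, and CpG dinucleotides are in capitals here and in all sequences below, all from GRCm38 patch 6. The Mof+/+ window, chr9:55544052-55544202 on the plus strand, holds 15 CpG and 64.2% GC, and the Mof+/- window, chr9:55544718-55544868 on the plus strand, holds 4 CpG and 52.3% GC.
Isl2 Mof+/+ summit: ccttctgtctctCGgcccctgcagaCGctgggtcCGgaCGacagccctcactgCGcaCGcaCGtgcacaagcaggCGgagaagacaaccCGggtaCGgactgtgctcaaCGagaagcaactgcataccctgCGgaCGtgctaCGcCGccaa
Isl2 Mof+/- summit: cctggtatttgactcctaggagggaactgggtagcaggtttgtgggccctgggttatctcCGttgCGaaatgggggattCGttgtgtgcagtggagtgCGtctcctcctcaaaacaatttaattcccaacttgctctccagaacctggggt

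Lhx8, a regulator of cholinergic neurons of the forebrain and of oocytes, had the strongest Mof+/- peak of the family. The gene (ENSMUSG00000096225.7) lies at chr3:154306294-154330659 on the minus strand. Its Mof+/+ peak, chr3:154328220-154333697, was 5478 bp wide with a fold enrichment of 6.13, ranked 530 by that measure, and held 46 fragments (33.7 to 61.4) over a background of 6.66. The main Mof+/- peak, chr3:154328678-154332927, was 4250 bp wide with a fold enrichment of 8.89, ranked 5 of the list both by fold enrichment and by width, and held 28 fragments (18.6 to 40.5) over 2.26. A second Mof+/- peak, chr3:154333369-154333619, had a fold enrichment of 3.99 and lay just inside the rule, with its summit at -2900 bp from the first start site. The main peaks covered that start site in both lists and reached into the neighbouring noncoding gene AI606473. Of the base pairs under the Mof+/+ peak, 82.2% were also under a Mof+/- peak, close to the share at Isl2 and above the 0% to 40.8% of the other 5 genes with a Mof+/+ peak.

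The main Lhx8 summits were 43 bp apart, in an intron 1318 bp and 1361 bp downstream of the first start site. The 194 bp that span both are shown because the summits of these strong peaks nearly coincided (chr3:154329223-154329416, minus strand, 10 CpG, 43.3% GC).
Lhx8 both summits: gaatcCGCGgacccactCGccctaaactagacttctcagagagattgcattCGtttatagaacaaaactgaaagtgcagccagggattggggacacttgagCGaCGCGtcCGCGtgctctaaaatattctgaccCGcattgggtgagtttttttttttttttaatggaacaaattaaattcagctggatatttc

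Its paralogue Lhx6 (ENSMUSG00000026890.19, chr2:36081953-36105408, minus strand), which is needed for cortical interneurons, had no peak in either list. The nearest Mof+/+ peak lay 31044 bp from the gene and the nearest Mof+/- peak 2250197 bp away, at Lhx2. RefSeq gives 3 promoters of the gene, with 16, 17 and 11 CpG in the 300 bp from 250 bp before to 50 bp after the start, where the median protein-coding promoter holds 14.

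Lhx2 and Lhx9 act in the eye and forebrain and in the gonad, respectively. Lhx2 (ENSMUSG00000000247.11, chr2:38339281-38369733, plus strand) had 5 Mof+/+ peaks and 1 Mof+/- peak. The strongest Mof+/+ peak, chr2:38354317-38356912, was 2596 bp wide with a fold enrichment of 5.53 and 24 fragments (15.4 to 35.7) over a background of 3.52. The Mof+/- peak, chr2:38355605-38356482, lay inside it with a fold enrichment of 4.91 and 15 fragments (8.40 to 24.7) over 2.26. Both summits were in an intron, 142 bp apart. This intronic site stood above the other 4 Mof+/+ peaks of the gene, which had fold enrichments between 2.89 and 3.10, and none of those overlapped a Mof+/- peak. The first start site was not covered, and the nearest Mof+/+ peak began 866 bp downstream of it. The 293 bp that span both summits (chr2:38356034-38356326, plus strand, 7 CpG, 51.9% GC) are shown because this site alone of the gene was called in both genotypes.
Lhx2 both summits: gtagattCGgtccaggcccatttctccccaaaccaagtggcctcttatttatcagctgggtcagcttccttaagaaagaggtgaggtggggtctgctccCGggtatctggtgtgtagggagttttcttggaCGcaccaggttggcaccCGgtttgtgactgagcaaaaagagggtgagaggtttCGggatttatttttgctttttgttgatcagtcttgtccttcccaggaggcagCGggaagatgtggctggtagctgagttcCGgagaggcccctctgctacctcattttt

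Lhx9 (ENSMUSG00000019230.14, chr1:138825186-138848577, minus strand) had 5 Mof+/+ and 4 Mof+/- peaks and the longest Mof+/+ cover of the family, 9199 bp, which ranked 210 among protein-coding genes. A Mof+/+ peak of 6647 bp, chr1:138838102-138844748, had its summit in an intron and covered 3 annotated start sites and the RefSeq promoter of the gene. It had a fold enrichment of 3.77 and held 3 separate Mof+/- peaks with fold enrichments of 5.21, 3.87 and 4.66. The strongest of these, chr1:138840049-138841817, had its summit 20 bp from the Mof+/+ summit. A second shared site lay in a coding exon, where the Mof+/+ peak chr1:138831093-138831793 (fold enrichment 3.29) and the Mof+/- peak chr1:138830809-138831537 (fold enrichment 3.44) had summits 10 bp apart. The remaining Mof+/+ peaks had fold enrichments of 4.20, 3.41 and 3.32. Lhx9 was thus the gene with the most Mof+/- peaks, although its strongest Mof+/+ peak ranked 4288 of the list by fold enrichment. Its first start site was under a Mof+/+ peak of 542 bp and under no Mof+/- peak. The 171 bp that span the intronic summits (chr1:138840774-138840944, minus strand, 4 CpG, 40.9% GC) are shown because they also hold a TAATTA, a motif bound by many homeodomains.
Lhx9 both summits: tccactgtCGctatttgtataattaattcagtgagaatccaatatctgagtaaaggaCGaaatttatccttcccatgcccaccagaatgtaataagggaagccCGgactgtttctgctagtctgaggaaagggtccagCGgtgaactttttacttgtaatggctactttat

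Lhx4 and Lhx3 direct the development of the pituitary and of motor neurons. Lhx4 (ENSMUSG00000026468.14, chr1:155698031-155751684, minus strand) had 4 Mof+/+ peaks with fold enrichments of 4.20, 3.76, 3.24 and 3.76. They stood around its second start site, 9657 bp downstream of the first, and left that start site itself in a gap of 482 bp. The strongest, chr1:155743096-155743794, with 18 fragments (10.7 to 28.4) over 3.52, overlapped the Mof+/- peak chr1:155743170-155743945, with a fold enrichment of 4.29 and 13 fragments (6.92 to 22.2) over 2.26. Their summits were 405 bp apart in an intron, the second largest distance among shared sites set side by side here. Lhx4 also had the 1 Mof+/- peak within the rule without a Mof+/+ counterpart, chr1:155733319-155733557, of 239 bp with a fold enrichment of 4.60 and 14 fragments over 2.26. Lhx3 (ENSMUSG00000026934.15, chr2:26200212-26208289, minus strand) had no peak in either list, and the nearest Mof+/+ peak lay 28562 bp from it.

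Lhx1 and Lhx5 act in the head organizer, the kidney and the forebrain. Lhx1 (ENSMUSG00000018698.15, chr11:84518284-84525535, minus strand) had the most Mof+/+ peaks of the family, 6, and all were weak to moderate, with fold enrichments from 2.26 to 3.58. Just outside the rule, 208 bp past its edge, lay another Mof+/+ peak, with a fold enrichment of 2.48. The Mof+/- peak, chr11:84524578-84524858, had a fold enrichment of 4.29 and 13 fragments over 2.26, and it overlapped the Mof+/+ peak chr11:84524434-84524935, with a fold enrichment of 3.58 and 20 fragments over 4.87. Both summits lay downstream of the first start site, in an untranslated region of Lhx1. The 2 Mof+/+ peaks upstream of the gene were in introns of Lhx1os, a divergent noncoding RNA gene. The first start site lay in a gap of 1058 bp between peaks, in a promoter with 31 CpG in 300 bp. Lhx5 (ENSMUSG00000029595.9, chr5:120431699-120441223, plus strand) had no peak in either list, with the nearest Mof+/+ peak 70079 bp away and the nearest Mof+/- peak 137860 bp away.

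Isl1 (ENSMUSG00000042258.13, chr13:116298281-116309689, minus strand), a regulator of motor neurons, heart progenitors and pancreatic islets, had 3 Mof+/+ peaks and was the 1 gene of the family with Mof+/+ peaks alone. Their fold enrichments were 3.54, 3.09 and 3.54, each on 15 fragments (8.40 to 24.7), and all were below the 3.68 needed in the Mof+/- list at its lowest background, although a higher local background lowers the fold enrichment needed. The nearest Mof+/- peak lay 17794531 bp away. The part of this limit in the missing Mof+/- peaks was not tested. Of the 18 Mof+/+ peaks of the family without a Mof+/- overlap, 15 were below that limit, and 3 were at or above it. Of the 7 that did overlap a Mof+/- peak, 2 were also below it, at Lhx1 and at the Lhx9 exon. Of the 8 Mof+/+ peaks at or above the limit, 5 overlapped a Mof+/- peak. Over all peaks, 334 of the 7749 at or above the limit did. Because the family was picked for its peaks, the difference between these shares describes the choice.

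**Figure D2:**
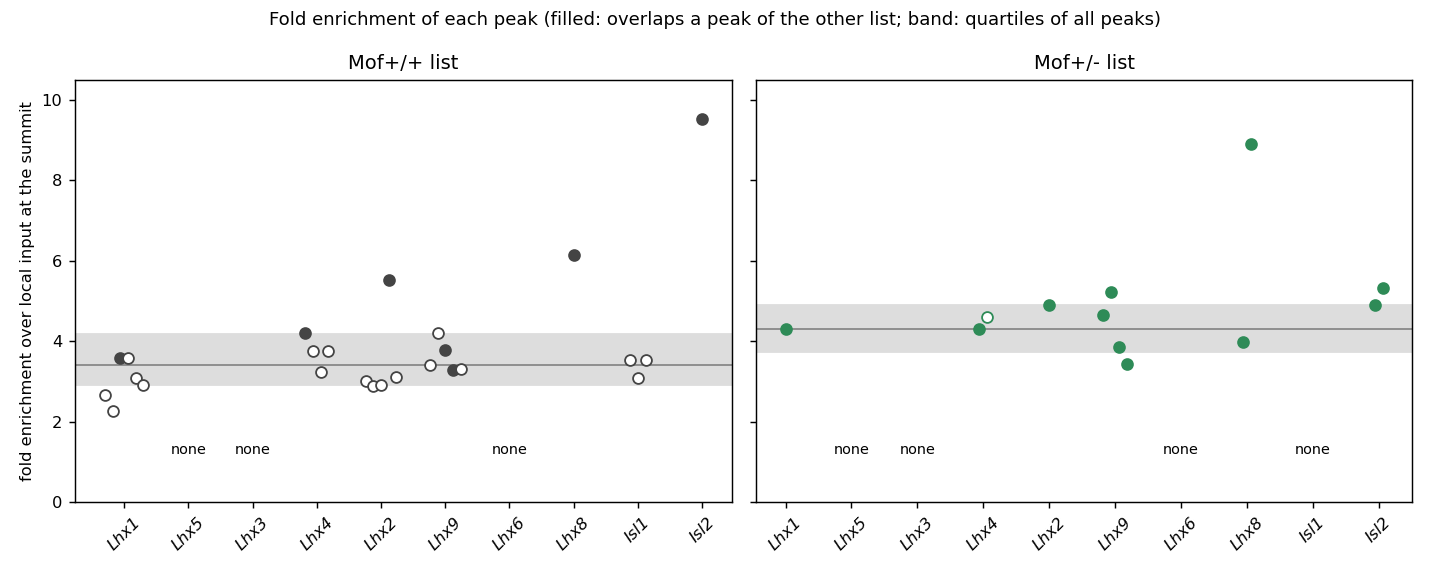
Fold enrichment over the local input at the summit of every peak of the 10 genes, in the Mof+/+ list (left) and the Mof+/- list (right). Filled points overlap a peak of the other list, and the grey band spans the quartiles of all peaks of the list with its median as a line. The Isl2 point at 9.51 and the Lhx8 point at 8.89 stand apart, while most others lie within or near the band.

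Sites called in both lists allowed the strength of the summits to be set side by side. The fragments over each summit and the input background were solved from the deposited fold enrichment and p-value. The ratio of fragments per background, Mof+/- over Mof+/+, was 1.79 at Lhx8 (exact 95% interval 1.08 to 2.93) and 0.531 at Isl2 (0.315 to 0.881). At Lhx1 the ratio was 1.40 (0.640 to 2.96), at Lhx4 1.12 (0.507 to 2.43) and at Lhx2 0.973 (0.475 to 1.93). At Lhx9 it was 1.70 (0.861 to 3.23) for the intronic site and 1.07 (0.493 to 2.31) for the exonic site. The median of the 7 was 1.12. The intervals take the background as known and are a description of sites that had to be called in both lists, not a test of the genotypes.

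The ratios at Lhx8, Isl2, Lhx1 and both Lhx9 sites moved with the local background. At Lhx8 the Mof+/+ background (6.66) was above the lowest of its list and the Mof+/- background was at the lowest, as at the Lhx9 intron (6.96 for Mof+/+), and at Isl2 the Mof+/- background (4.26) was above the lowest of its list and the Mof+/+ background was at the lowest. With each summit divided by the lowest background of its list in place of the local one, a choice made after the data were seen, the ratio was 0.948 at Lhx8 (0.570 to 1.55), 1.00 at Isl2 (0.593 to 1.66) and 0.859 at the Lhx9 intron (0.436 to 1.63), where it had been above 1. At Lhx1 it went from 1.40 to 1.01, and at the Lhx9 exon it rose from 1.07 to 1.46, away from 1. All 7 ratios then lay between 0.859 and 1.46. No difference in strength between the genotypes can thus be read from these summits.

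**Figure D3:**
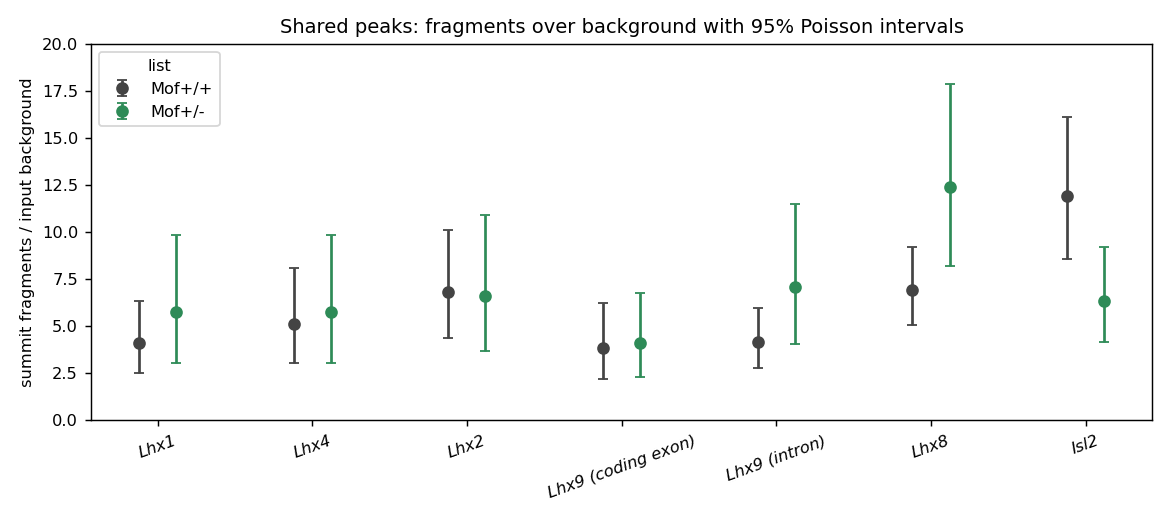
Fragments over the summit divided by the local input background (linear axis from 0) at the 7 sites called in both lists, with the exact Poisson 95% interval of the fragments as bars. Dark points are Mof+/+ and green points Mof+/-. The green point is above the dark one at Lhx8 and below it at Isl2, and the bars overlap by a wide margin at Lhx1, Lhx2, Lhx4 and the Lhx9 exon.

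Mof+/+ peaks covered start sites of the family about as often as those of other genes. Of the 7 genes with a Mof+/+ peak, 4 had a start site under one (Lhx8, Lhx9, Isl1 and Isl2), and 71.5% of all protein-coding genes with a Mof+/+ peak did, which is about 1 gene more in 7. Of the 46 annotated start sites of the 10 genes, 11 were under a Mof+/+ peak, and over all protein-coding genes 23.8% of start sites were. In the Mof+/- list 5 were, at Lhx8 and Isl2, where the share over all genes was 0.224%. Uncovered start sites lay in narrow and in wide gaps between neighbouring Mof+/+ peaks. The first start site of Lhx1 lay in a gap of 1058 bp and its other 3 in a gap of 2752 bp. At Lhx4 a start site lay in a gap of 482 bp and the first in one of 68750 bp, at Isl1 the first lay in one of 448 bp, at Lhx9 2 lay in one of 679 bp and 1 in one of 6308 bp, and at Lhx2 the gaps ran from 5158 bp to 52752 bp. The first start site of Isl2 lay in a gap of 26795 bp. Uncovered start sites of Lhx8 lay in one of 414522 bp, and further ones of Isl1 in one of 1216840 bp. At Isl1 the first start site was 229 bp from the peak upstream of it and 220 bp from the peak downstream.

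CpG was counted in RefSeq promoters of 300 bp, which were found for 9 of the 10 genes, 13 promoters in all, and Lhx5 was not in the table. Among 20150 promoters of protein-coding genes, 3.47% of those with 4 CpG or fewer were under a Mof+/+ peak, 34.0% of those between the quartiles and 60.4% of those with 25 or more. The LIM homeobox promoters did not follow that order. The 1 with few CpG, at Lhx8 (4 CpG), was under a peak in both lists, and of the 5 with 25 or more, the 1 at Isl1 (37 CpG) touched a Mof+/+ peak. The others in that class, at Lhx1 (31), Lhx2 (34 and 29) and Lhx3 (28), touched none. Of the 7 in between, those at Isl2 (23) and Lhx9 (6) were under a Mof+/+ peak, and Lhx4 (19), Lhx3 (13) and the 3 of Lhx6 were not. With 13 promoters, of genes picked for their peaks, this is a description. It cannot show that the family departs from the order over all genes.

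**Figure D4:**
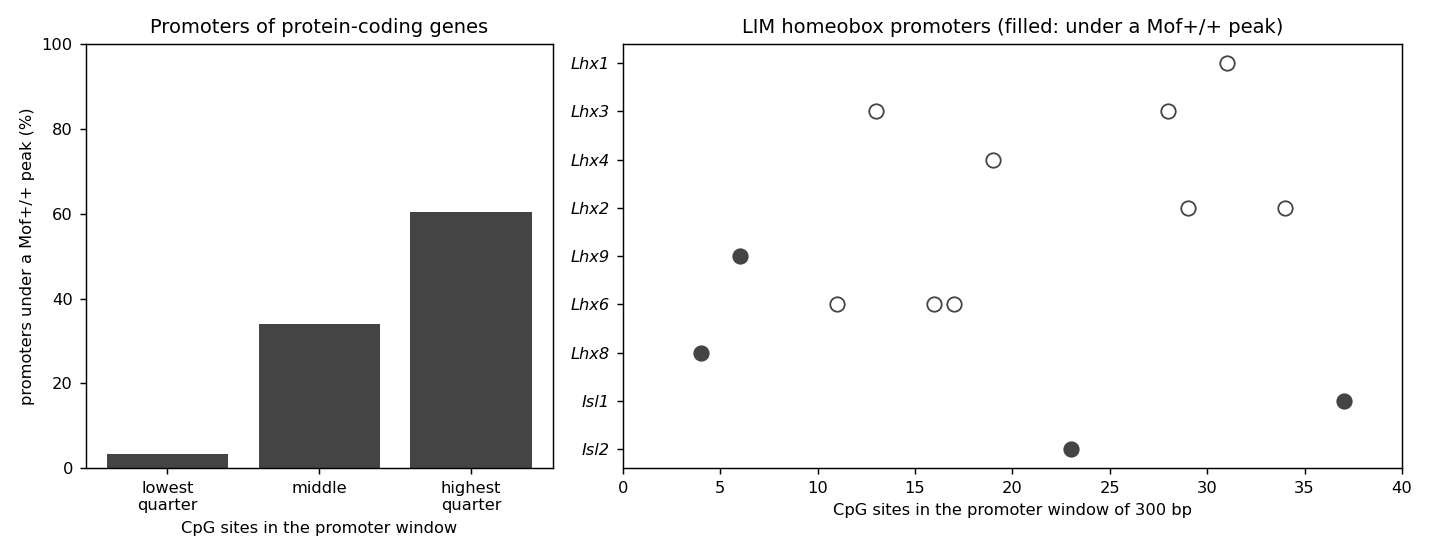
Left, percent of promoters of protein-coding genes that overlap a Mof+/+ peak, by class of CpG number in the 300 bp promoter. Right, the CpG number of each of the 13 LIM homeobox promoters, filled where the promoter overlaps a Mof+/+ peak. The bars rise from 3.47% to 60.4%, while filled points occur at 4, 6, 23 and 37 CpG and 4 of the 5 promoters with 25 or more are open.

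The 250 bp upstream of 4 starts are shown to compare a promoter inside a wide peak (Isl2, chr9:55540899-55541148, plus strand, 16 CpG), 2 promoters between peaks (Lhx1, chr11:84525535-84525784, minus strand, 26 CpG, and Isl1, chr13:116309689-116309938, minus strand, 33 CpG, whose far end touches a Mof+/+ peak) and a promoter with no peak nearby (Lhx6, chr2:36105409-36105658, minus strand, 14 CpG). Coordinates are GRCm38 and the sequences are from RefSeq (GRCm38 patch 6).
Isl2 upstream: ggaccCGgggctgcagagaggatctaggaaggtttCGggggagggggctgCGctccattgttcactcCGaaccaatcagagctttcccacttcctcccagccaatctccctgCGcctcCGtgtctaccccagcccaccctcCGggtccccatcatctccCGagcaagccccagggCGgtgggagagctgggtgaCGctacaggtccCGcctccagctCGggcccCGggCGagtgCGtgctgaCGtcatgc
Lhx1 upstream: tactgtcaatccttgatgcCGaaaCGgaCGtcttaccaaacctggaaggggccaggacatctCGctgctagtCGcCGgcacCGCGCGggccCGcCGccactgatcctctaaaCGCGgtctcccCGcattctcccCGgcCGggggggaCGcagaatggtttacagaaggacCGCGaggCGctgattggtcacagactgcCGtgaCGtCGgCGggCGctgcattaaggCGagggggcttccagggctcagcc
Isl1 upstream: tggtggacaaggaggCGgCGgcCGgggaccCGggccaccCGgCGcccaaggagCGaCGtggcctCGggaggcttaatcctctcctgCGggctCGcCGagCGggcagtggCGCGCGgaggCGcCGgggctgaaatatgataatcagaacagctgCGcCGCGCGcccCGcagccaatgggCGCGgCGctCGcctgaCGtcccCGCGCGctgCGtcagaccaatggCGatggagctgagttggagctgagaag
Lhx6 upstream: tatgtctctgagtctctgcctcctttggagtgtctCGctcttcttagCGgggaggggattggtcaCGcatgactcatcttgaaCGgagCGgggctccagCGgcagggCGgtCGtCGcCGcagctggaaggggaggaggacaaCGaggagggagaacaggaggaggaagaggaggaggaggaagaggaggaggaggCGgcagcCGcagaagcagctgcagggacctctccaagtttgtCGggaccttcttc

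The sequence under the Mof+/+ peaks of the family held a median of 4.12 CpG per 100 bp, where all Mof+/+ peaks held 2.45, and the median GC content was 51.3% against 52.4%. In the Mof+/- list CpG density was 3.02 against 3.31 and GC content 47.3% against 49.2%. Members differed widely, from 0.444 CpG per 100 bp under a Mof+/+ peak at the end of Lhx9 to 7.97 under the peak upstream of Isl1. The chromatin had been cut with CviKI-1, an enzyme that cuts within RGCY, where R stands for a purine and Y for a pyrimidine. Such sites numbered 16.5 per kb here and 21.2 over all Mof+/+ peaks, and 13.9 against 13.4 in the Mof+/- list. The part of the enzyme in the height of a peak was not tested. The motif TAATTA, a palindrome that reads the same on both strands, lay within 150 bp of 2 of the 25 Mof+/+ summits (8.0%), both at Lhx9, against 3.91% of all Mof+/+ summits. It lay near 1 of the 12 Mof+/- summits, against 7.26% of all, and in 0 of the 13 promoters, against 4.48% of all. A match is not a binding site.

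The remaining LIM homeobox genes are Lmx1a and Lmx1b, which act in midbrain dopamine neurons and in limb patterning. Lmx1a had 2 Mof+/+ peaks (highest fold enrichment 3.98) and 1 Mof+/- peak, chr1:167690593-167690857, with a fold enrichment of 3.92 and no overlap with the Mof+/+ peaks. Lmx1b had none. Of 10 genes for cofactors and partners of LIM homeodomain proteins, 7 had a Mof+/+ peak and 1 a Mof+/- peak. That gene was Ldb1, which encodes the adaptor of these complexes, with 6 Mof+/+ peaks over 5778 bp (highest fold enrichment 5.93) and a Mof+/- peak with a fold enrichment of 3.71. Others with long Mof+/+ cover were Ssbp4 (5991 bp) and Ssbp3 (2216 bp), whose products bind LDB1, and the LIM-only gene Lmo4 (3796 bp), and the genes without a peak were Ldb2, Lmo1 and Lmo3. Of 30 genes for LIM domain proteins without a homeodomain, 21 had a Mof+/+ peak and 1, Crip1, a Mof+/- peak (fold enrichment 3.78). By Mof+/+ cover the order was Ablim1 (15071 bp), Crip1 (7457 bp), Lpp (6756 bp) and Lasp1 (5894 bp), and Ablim1 and Lasp1 encode proteins that bind actin. Cover, here and at Lhx9, is the sum of peak widths at a gene and was not scaled to gene length. The share with a Mof+/+ peak was 70% in the LIM homeobox genes, in their cofactors and in the LIM domain genes, against 44.5% of all protein-coding genes. The share with a Mof+/- peak was 60%, 10% and 3.33%, against 1.89%. The 10% and the 3.33% are 1 gene each. Because the LIM homeobox genes were picked for their peaks, the shares cannot be read as a contrast between the lists.

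Other homeobox families were picked in the same knowledge of the peaks. Of 9 Dlx and Msx genes, 4 had peaks in both lists (44.4%, 18.9 to 73.3), namely Dlx1, Dlx2, Dlx6 and Msx1. Of 8 Otx, Pitx and Alx genes, 8 had a Mof+/+ peak and 7, all but Alx4, a Mof+/- peak (87.5%, 52.9 to 97.8). These shares describe the choice of the families, and no order among them was drawn.

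**Figure D5:**
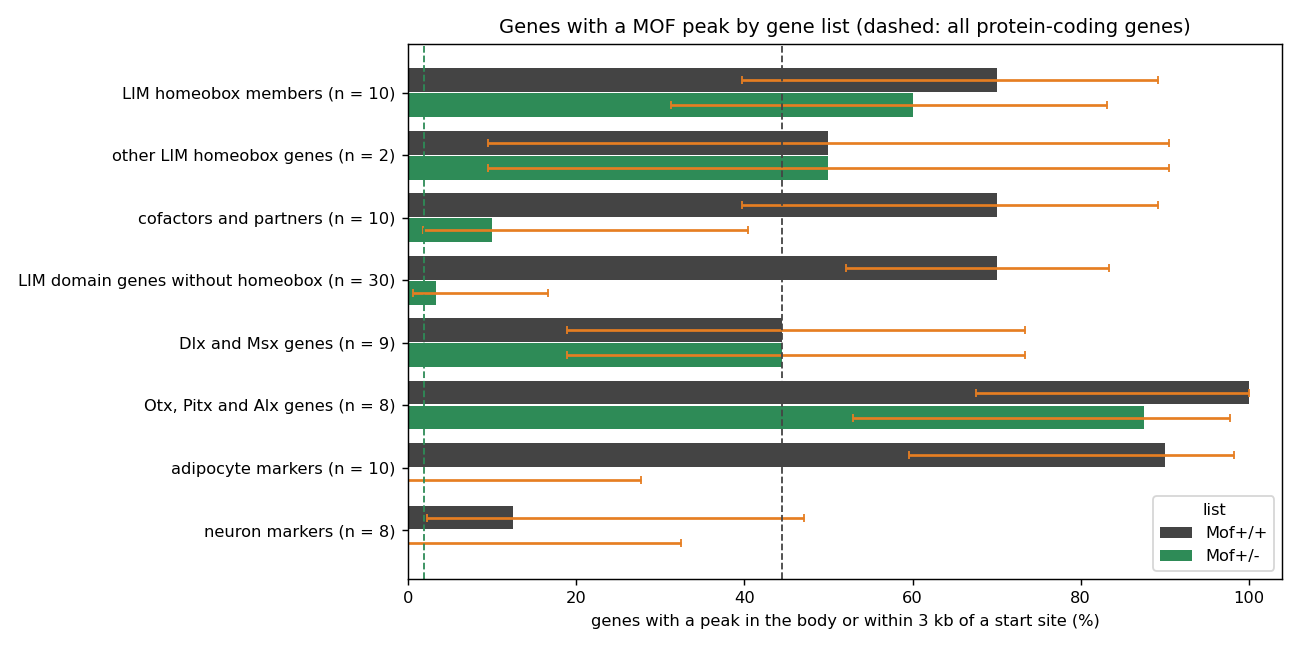
Percent of the genes of each list with a MOF peak in the body or within 3 kb of a start site, in the Mof+/+ list (dark bars) and the Mof+/- list (green bars), with 95% Wilson intervals as orange lines. Dashed lines mark all protein-coding genes, at 44.5% and 1.89%. Green bars are long for the homeobox lists, which were picked with their peaks known. They are short or absent for the cofactors, the other LIM domain genes and the marker genes.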

How the data were processed

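MOF ChIP-seq of visceral white adipose tissue from Mof+/+ and Mof+/- mice was analysed from 2 peak lists, as the authors deposited them. Per the labels and the paper's methods, paired-end reads went through snakePipes 2.1.2 for mapping to GRCm38 and peaks were called with MACS2 2.1.1.20160309.3 against input (bandwidth 200, mfold 5 to 500, q-value 0.1). The deposited fold enrichment is the caller's ratio of summit fragments to local background, and it is accompanied by a deposited −log10 p-value and by the −log10 of the q-value. A merging of peaks within 1000 bp is named in the methods, but closer peaks remained in both lists, which were used as they stood. The H3 libraries were not analysed here, and the lists give no total depth.

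Lists were assigned to genotypes by name. Genes were those of GENCODE M21 and sequence was GRCm38 patch 6, in which all 32851 RefSeq promoters matched at their coordinates and 0 of 20469 peaks reached past a chromosome end. Shares over all peaks cover assembled chromosomes (19753 and 716 peaks), and an overlap was 1 bp or more. Whole fragments and background were solved from fold enrichment, in which MACS2 adds a pseudocount of 1 to each, and p-value (tolerance 0.01 on the −log10 p-value, all 25 and 12 peaks of the family solved). The code was tested on simulated data. Shares have 95% Wilson intervals, fragments exact Poisson and ratios exact Clopper-Pearson 95% intervals, all for counting error only. With 1 list per genotype the lists allowed no test between genotypes. The signal tracks that the paper's reporting summary names were not used. Python 3.11.15, numpy 2.4.6 and scipy 1.17.1 were used.

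The members and gene lists were chosen with earlier results of these data known. All 10 members are named, and of the other lists the genes with a Mof+/- peak and up to 3 with the longest Mof+/+ cover. 1 further list is not reported here. Alternatives concerned the window, start sites, q-value, p-value, merging and overlap, and, added after seeing the data, the background of a summit, the choice of the paired peak and the q-value behind CpG density.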

Additional observations from a re-analysis of the deposited data

How the results depend on the processing

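No paired analysis was possible because there is 1 list per genotype, without replicate columns, and for the same reason no replicate could be left out in turn. The 7 genes with a Mof+/+ peak were the same in all alternatives tried. The 6 with a Mof+/- peak were the same except with start-site windows of 1 kb without the gene body (4 genes, Lhx1, Lhx9, Lhx8 and Isl2) and with q-values limited to 0.001 (5 genes, all but Lhx1). The number of peaks moved more. In place of 25 Mof+/+ peaks there were 14 with windows of 1 kb without the gene body, 15 with q-values limited to 0.001, and 15 with peaks within 1000 bp merged. In place of 12 Mof+/- peaks there were 5 with windows of 1 kb without the gene body and 7 with the limit of 0.001. The share of Mof+/- peaks that overlapped a Mof+/+ peak fell from 91.7% to 41.7% where 50% of both peaks had to overlap, a rule that a narrow peak inside a wide one cannot meet. The share of Mof+/+ peaks that overlapped a Mof+/- peak went from 28% to 46.7% with peaks within 1000 bp merged and to 40% with peaks up to 1000 bp apart counted, both inside the wide interval of the share. Neither alternative was worked out over all peaks. In all, 34 values that answer a comparison stayed within 1.5 times a count, the interval of a share or the range of the members. Among lesser values, the median Mof+/+ width was 2133 bp after merging, and the strongest peak of a gene by p-value was the strongest by fold enrichment in 12 of 13 cases, the exception being Lhx9 in the Mof+/+ list. Single summits rested on 12 to 46 fragments, which limits each fold enrichment.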
